A study of Mus musculus with 8 samples.

Results

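The genes described are Mt1, Mt2 and Mt3, which encode metallothioneins, the zinc sensor gene Mtf1, and the zinc transporter genes Slc30a1 and Slc39a14. They are 6 of the 22552 gene symbols in the deposited files and were chosen by name, with the depot differences of the metallothioneins already known. Their differences between depots are therefore given as a description, with no p-value, and the calls printed for them further on are part of that description. The libraries hold RNA on GFP-tagged ribosomes, which an antibody against GFP pulled down from cells that express Ucp1 (the method called UCP1-TRAP, translating ribosome affinity purification). UCP1 is the mitochondrial protein that brown and beige adipocytes use to make heat. All mice were females labelled C57B/6 UCP1-TRAP, born and raised at 30 °C, kept at room temperature from weaning at 3 weeks and at 4 °C from 4 weeks on, and sampled after 2 weeks of cold, when 6 weeks old. There were 3 libraries of inguinal white adipose tissue (inguinal WAT), 2 of perigonadal white adipose tissue (perigonadal WAT) and 3 of brown adipose tissue (BAT). No warm-housed mice were analysed here, so every level is a level after cold. The labels do not say that libraries of a depot came from separate animals, and the spread between them may be partly technical. The tag follows the Ucp1 promoter, and RNA that sticks to the beads from other cells is not separated from RNA of tagged cells.

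Metallothioneins are small cysteine-rich proteins that bind zinc and copper and buffer them inside the cell. MTF1, encoded by Mtf1, is a transcription factor that senses free zinc and binds short DNA motifs called metal response elements, through which it switches on Mt1, Mt2 and Slc30a1 in mice. ZnT1, encoded by Slc30a1, carries zinc out of the cell, and ZIP14, encoded by Slc39a14, carries zinc into it. Besides metals, glucocorticoids, interleukin-6 and cold are known to raise metallothionein mRNA in rodent tissues, brown fat among them.

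In the build of the files, mm9, the metallothionein genes lie side by side on the plus strand of chromosome 8. Mt2 spans chr8:96696518-96697467 and Mt1 spans chr8:96702989-96704227, 5521 bp further on. Mt3 spans chr8:96676507-96678048, 18469 bp before Mt2. Each has 3 exons, and the annotated transcripts measure 542 nt for Mt1, 556 nt for Mt2 and 538 nt for Mt3. Mtf1 spans chr4:124479793-124527044 in 11 exons and 7631 nt. Slc30a1 spans chr1:193730660-193737126 in 2 exons and 5230 nt. Slc39a14 spans chr14:70703274-70751231 on the minus strand, with 3 annotated transcripts of at most 4927 nt.

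The DNA in front of the genes that MTF1 is known to act on is shown here because it holds the motif that links the sensor to its targets. The sequences are the 250 bases before the start that RefSeq annotates, from build GRCm38.p6, and 5 of the 6 genes were matched. Capitals mark the core of the metal response element, searched on both strands as TGCACNC or TGCGCNC, a pair of patterns that cannot match at the same place.
Mt1 (chr8:94178839-94179088, plus strand): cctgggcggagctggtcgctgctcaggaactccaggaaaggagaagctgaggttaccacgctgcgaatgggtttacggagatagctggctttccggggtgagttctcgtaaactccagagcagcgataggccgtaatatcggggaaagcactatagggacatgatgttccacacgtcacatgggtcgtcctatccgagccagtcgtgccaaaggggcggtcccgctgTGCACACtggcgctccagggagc
Mt2 (chr8:94172368-94172617, plus strand): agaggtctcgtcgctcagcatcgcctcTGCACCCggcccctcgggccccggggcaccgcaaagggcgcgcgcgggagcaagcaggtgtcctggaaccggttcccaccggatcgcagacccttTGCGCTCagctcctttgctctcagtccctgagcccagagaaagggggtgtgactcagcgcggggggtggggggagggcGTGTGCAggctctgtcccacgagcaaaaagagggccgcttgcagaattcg
Slc30a1 (chr1:191906531-191906780, plus strand): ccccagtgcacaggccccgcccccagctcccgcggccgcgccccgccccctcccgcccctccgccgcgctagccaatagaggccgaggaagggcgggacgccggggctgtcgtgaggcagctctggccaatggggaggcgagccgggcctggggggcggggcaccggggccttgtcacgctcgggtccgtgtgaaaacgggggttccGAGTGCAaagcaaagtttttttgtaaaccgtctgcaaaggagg
The Mt2 stretch held 3 matches, at -223, -128 and -50 from the start. The Mt1 stretch held 1, at -23, and the Slc30a1 stretch held 1, at -43. Those of Mt3 and Mtf1 held 0. Of 32851 RefSeq promoters of this length, 21.4% held at least 1 match and 1.26% at least 3. A match is a run of letters and no evidence that MTF1 bound there in these cells.

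The annotated starts of Mt1 and Mt2 lie upstream of the letters TATAAA, the usual form of a TATA box. In GENCODE vM21 (GRCm38), exon 1 of transcript Mt1-201 has 128 bases before TATAAA, and these hold 4 further matches to the motif. Exon 1 of Mt2-201 has 89 bases before TATAAA, with 3 matches. Among the bases just before all 32851 RefSeq starts, 0.0792% of 128-base stretches held at least 4 matches and 0.268% of 89-base stretches at least 3, and TATAAA stood in 4.52% of 134-base and 3.67% of 95-base stretches. A 30-base site of each kind is shown for each gene, with the motif core or TATAAA in capitals; a match on the minus strand reads as its reverse complement.
Mt1 motif (chr8:94179098-94179127): cgcccgaaaagTGCGCTCggctctgccaag
Mt1 TATAAA (chr8:94179198-94179227): tcgtccaacgacTATAAAgagggcaggctg
Mt2 motif (chr8:94172684-94172713): gcggcgggggcGCGTGCAtggtgccttcca
Mt2 TATAAA (chr8:94172741-94172770): aatactctccgcTATAAAggtcgcgctccg
GENCODE lists other Mt1 transcripts that start 122 and 152 bases after the RefSeq start, where TATAAA begins 121 bases after it. FPKM (fragments relative to the length of the transcript and the size of the library) divides by the annotated length, so the level of these genes set against others depends on where the start is placed. One fragment of Mt1 was credited with 0.670 (perigonadal replicate 1) to 1.27 FPKM (BAT replicate 1), so the divisor also varied between libraries.

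Depth limited the low genes. Estimated fragments on the listed transcripts ran from 273560 in inguinal replicate 3 to 1173604 in perigonadal replicate 1, and FPKM totals from 75925 to 206549. The median tested gene was 0.52 higher in perigonadal WAT than in BAT on the log2(FPKM + 1) scale, 0.03 higher in inguinal WAT than in BAT, and 0.50 lower in inguinal than in perigonadal WAT. Values are therefore also given in ppm (fragments per 1000000 fragments on listed transcripts), which do not divide by transcript length, and after median-ratio scaling, which sets the median gene equal between libraries. Thermogenic markers, among them Ucp1, were present in every library, with a summed FPKM of 4071 to 5141 in BAT, 1463 to 3274 in inguinal WAT and 3271 to 3583 in perigonadal WAT. The mean FPKM of Ucp1 was 1432 in BAT, 1104 in inguinal WAT and 1438 in perigonadal WAT. That of Cox8b was 1652, 659 and 843 in the same order. The median log2 difference of the 11 markers from BAT was -0.47 in inguinal WAT and 0.21 in perigonadal WAT.

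Mt1 was the most abundant of the genes in every library and was highest in BAT. Its FPKM was 72.1, 90.7 and 25.4 in the inguinal libraries, from 74, 97 and 21 fragments. In the perigonadal libraries it was 99.1 and 76.6, from 148 and 87 fragments. In the BAT libraries it was 173, 282 and 180, from 136, 250 and 172 fragments. Every BAT library stood above every white library, and the lowest BAT value was 1.74 times the highest perigonadal one. By FPKM, Mt1 ranked 73 to 136 among 22552 genes in BAT and 260 to 470 in the white depots. Group means were 62.8 ± 33.6 (SD, n = 3) in inguinal WAT, 87.9 ± 15.9 (n = 2) in perigonadal WAT and 212 ± 61.3 (n = 3) in BAT. The mean in BAT was 3.38-fold that of inguinal WAT and 2.41-fold that of perigonadal WAT. On the log2(FPKM + 1) scale the differences from BAT were -1.88 (SE 0.38) and -1.23 (SE 0.42).

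**Figure D1:**
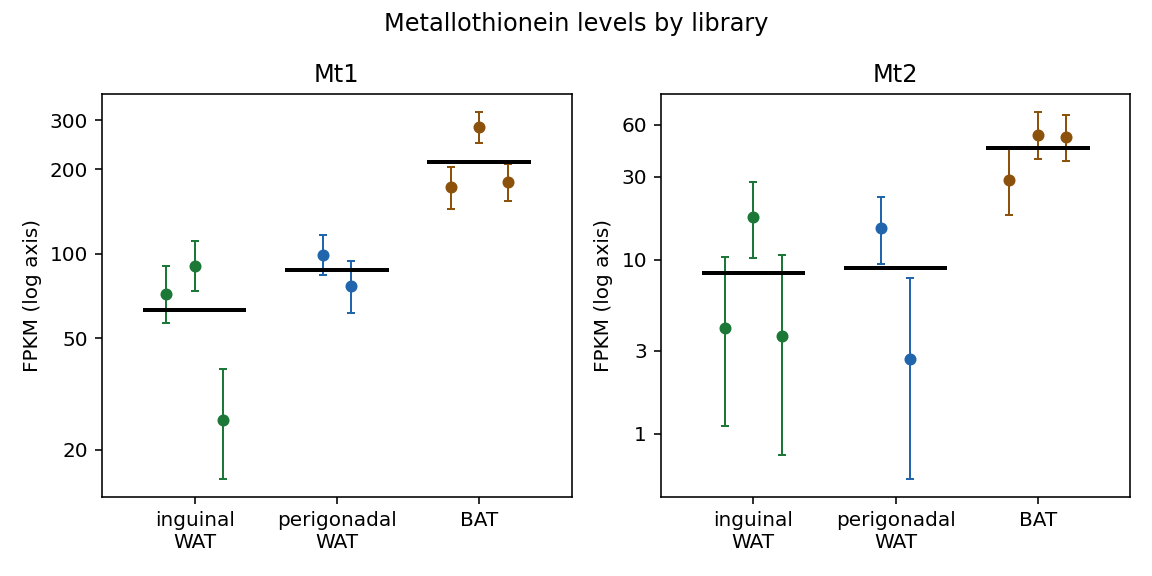
FPKM of Mt1 and Mt2 in each library on log axes, by depot. Points are libraries in order of replicate number, bars are exact 95% Poisson intervals from the fragments and cover counting error only, and black lines are group means; all 3 BAT points lie above all 5 white points for both genes.

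Mt2, which encodes the second of the widely expressed metallothioneins, was also highest in BAT, at a lower level. Its FPKM was 4.04, 17.6 and 3.65 in the inguinal libraries, from only 4, 17 and 3 fragments. In perigonadal WAT it was 15.2 and 2.68, from 22 and 3 fragments, so the replicates of each white depot lay far apart. In BAT it was 28.7, 52.6 and 51.0, from 22, 44 and 44 fragments. All 3 BAT libraries stood above all 5 white libraries, the nearest pair being BAT replicate 1 and inguinal replicate 2. Group means were 8.42 ± 7.93 (SD, n = 3), 8.93 ± 8.85 (n = 2) and 44.1 ± 13.3 (n = 3) in inguinal WAT, perigonadal WAT and BAT. The BAT mean was 5.24-fold the inguinal and 4.94-fold the perigonadal mean, and the log2 differences from BAT were -2.52 (SE 0.46) and -2.50 (SE 0.51). These Mt2 folds hang on single libraries: without inguinal replicate 2 the first became 11.5, and the second became 16.5 without perigonadal replicate 1 and 2.90 without perigonadal replicate 2. For Mt1, leaving out any 1 library gave 2.60 to 4.34 against inguinal WAT and 2.01 to 2.77 against perigonadal WAT.

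The depots differed in library composition, and other scalings of the same fragments gave similar or larger BAT folds. Mt1 made up 130.0, 183 and 76.8 ppm in inguinal WAT, 126 and 139 in perigonadal WAT and 369, 612 and 437 in BAT. On that measure the BAT mean was 3.64-fold the inguinal and 3.57-fold the perigonadal mean, and the groups again did not overlap. Mt2 made up 7.03, 32.0 and 11.0 ppm in inguinal WAT, 18.7 and 4.79 in perigonadal WAT and 59.7, 108 and 112 in BAT. Its BAT means were 5.58-fold and 7.91-fold higher, again without overlap. After median-ratio scaling the Mt1 folds were 3.74 and 3.82 and the Mt2 folds 5.70 and 8.99.

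Of 8958 tested genes, limma at an adjusted p under 0.05 called 42 (0.469%) that were lower in the inguinal libraries than in BAT and 155 (1.73%) that were higher, and 2 of the 5 tested genes described here, Mt1 and Mt2, were among the lower ones. After median-ratio scaling the split was 148 lower and 285 higher. In perigonadal WAT 24 genes (0.268%) were called lower than in BAT, among them Mt2, and 440 (4.91%) higher; after median-ratio scaling these were 300 and 242. None of the 5 was called between the white depots, where 0.703% of all genes were called (0.301% higher and 0.402% lower in inguinal WAT, 27 and 36 genes, and 26 and 0 after median-ratio scaling). The groups did not overlap, with the white depot lower, for 5.37% of genes in the inguinal and 3.72% in the perigonadal comparison, with the white depot higher for 6.81% and 48.3%, and every BAT library exceeded every white library for 1.99%. Nothing is read from these counts, since Mt1 and Mt2 were chosen with the differences in view. Ordered from the lowest log2 difference, Mt2 stood at place 3 and Mt1 at place 10 in inguinal WAT against BAT. In perigonadal WAT against BAT they stood at places 3 and 32. The 2 comparisons share the BAT libraries.

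Short transcripts as a class also read higher in BAT. The 381 tested genes of 300 to 699 nt, the length class of Mt1 and Mt2, had a median log2 difference of -0.43 in inguinal WAT against BAT, and 25.5% of them were lower without overlap. Against perigonadal WAT the median was -0.23 and the share 31.0%. Genes of 3000 to 5999 nt had medians of 0.09 and 0.62. Within the short class, 3 genes lay below Mt1 and 2 below Mt2 in the inguinal comparison, and 13 and 0 in the perigonadal one. The class was split out after the values were seen. The part of transcript length in the Mt1 and Mt2 differences was not tested.

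**Figure D2:**
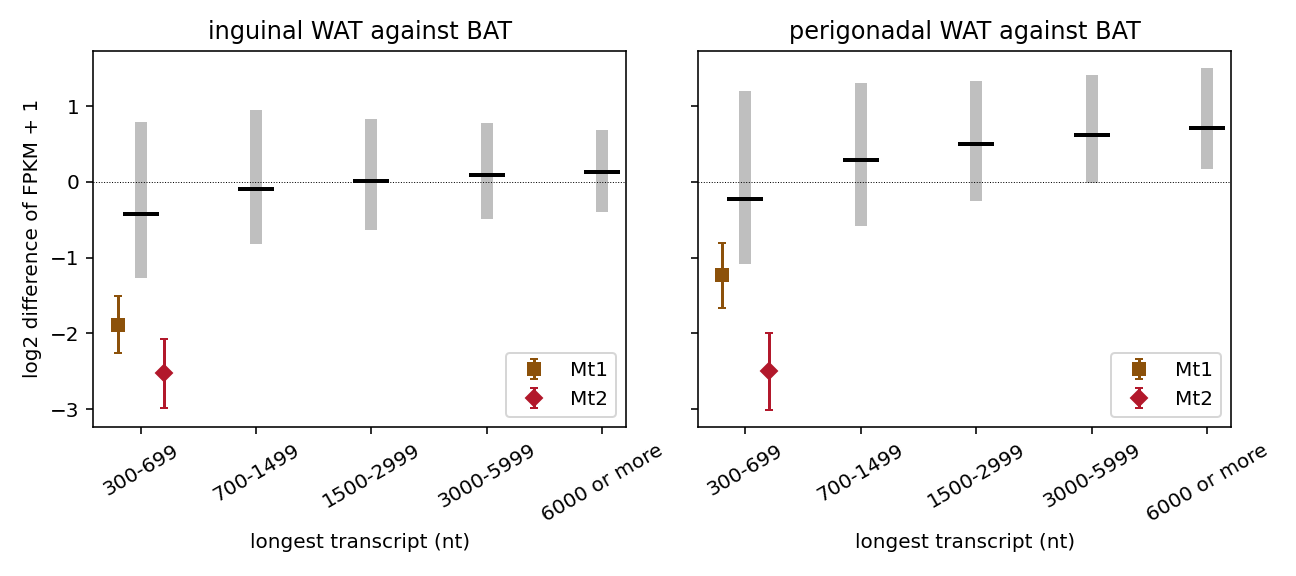
log2 differences of FPKM + 1 between each white depot and BAT for all tested genes, by length of the longest transcript. Grey bars run from the 5th to the 95th percentile of the genes in a class, black lines are medians, and Mt1 and Mt2 are drawn at their own class with their SE; both lie below the grey bar of the 300 to 699 nt class in each panel.

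Markers of other cell types also differed between the depots. Of all tested genes, limma called 1.73% higher and 0.469% lower in inguinal WAT than in BAT. In perigonadal WAT against BAT these shares were 4.91% and 0.268%, and in inguinal against perigonadal WAT 0.301% and 0.402%. Summed over 10 mammary epithelial markers, inguinal WAT reached 117 to 159 FPKM, against 7.02 to 22.0 in BAT and 2.99 to 3.10 in perigonadal WAT. Of 10 tested, 9 were called higher in inguinal WAT than in BAT and 10 higher than in perigonadal WAT. In perigonadal WAT 1 was called lower than in BAT. In BAT 9 of the markers were at 0 in every library, and the sum was that of Csn3 alone. The mean FPKM of Csn3 was 14.0 in BAT, 13.6 in inguinal WAT and 0.937 in perigonadal WAT. Summed over 7 smooth muscle markers, inguinal WAT reached 42.4 to 134, BAT 6.90 to 8.24 and perigonadal WAT 7.96 to 14.1. Of 6 tested, 4 were called higher in inguinal WAT than in BAT by limma. Des was instead lower there without overlap, at a mean of 4.83 FPKM in inguinal WAT and 7.33 in BAT. Summed over 9 macrophage markers the values were 4.91 to 6.87 in inguinal WAT, 6.45 to 15.2 in perigonadal WAT and 5.17 to 8.81 in BAT. Of 4 tested, Cd14 alone was called higher in inguinal WAT than in BAT (log2 difference 1.39, adjusted p = 0.0234, limma). The uncalled C1qc, Lyz2 and C1qa had log2 differences of -0.74, -0.56 and -0.03 in that comparison. Fibroblast markers reached 14.6 to 24.8 in inguinal WAT, 21.5 to 115 in perigonadal WAT and 3.39 to 11.6 in BAT, and endothelial markers 1.27 to 4.50, 6.73 to 12.6 and 2.50 to 3.64. Of 5 fibroblast markers tested, 4 were called higher in perigonadal WAT than in BAT. In inguinal WAT against BAT 0 were called, and 1 was called lower in inguinal than in perigonadal WAT. Red blood cell markers stood at 0 to 1.26 in inguinal WAT, 7.27 to 13.9 in perigonadal WAT and 4.01 to 8.37 in BAT. Nerve and glia markers stood at 6.68 to 24.3, 16.0 to 19.9 and 20.2 to 29.0, with no call among the 3 tested. S100b of that list was lower in both white depots than in BAT without overlap. Sox10 was instead higher in inguinal WAT than in BAT without overlap, and Mbp overlapped there. Lymphocyte markers reached at most 3.87 and skeletal muscle markers at most 1.27 in any library. Whether these markers came from tagged cells or from others was not tested, nor was their part in the metallothionein values. In pulled-down RNA of whole tissue, fewer tagged cells and less RNA per cell cannot be told apart.

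Between the white depots the metallothioneins overlapped. The perigonadal Mt1 mean was 1.40-fold the inguinal one, and 1.02-fold in ppm. The perigonadal Mt2 mean was 1.06-fold the inguinal one in FPKM but 0.706-fold in ppm and 0.634-fold after median-ratio scaling, so its direction turned with the scale. The lowest white Mt1 value was that of inguinal replicate 3, the library with the fewest estimated fragments on listed transcripts. These made up 14.6% of the estimated library size behind its FPKM, against 21.6% to 46.5% in the other libraries. For Mt2 the log2 difference of inguinal from perigonadal WAT was -0.03 (SE 0.51), but it ran from -1.09 to 1.04 when 1 library was left out, both ends set by leaving out a perigonadal library. The white libraries gave 3 to 22 Mt2 fragments each, and the replicates of a depot differed by more than the depots did.

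The balance between the 2 genes can be read within a library, where scaling cancels. Mt2 gave 5.13%, 14.9% and 12.5% of the Mt1 and Mt2 fragments in the inguinal libraries. In the perigonadal libraries it gave 12.9% and 3.33%, and in BAT 13.9%, 15.0% and 20.4%. The BAT shares lay above both perigonadal shares but overlapped the inguinal ones. Exact 95% binomial intervals were wide, from 2.66% to 32.4% in inguinal replicate 3 and from 15.2% to 26.4% in BAT replicate 3. Pooled over libraries the share was 11.1% (24 of 216 fragments) in inguinal WAT, 9.62% (25 of 260) in perigonadal WAT and 16.5% (110 of 668) in BAT. Together, Mt1 and Mt2 came to 71.2 ± 39.8 FPKM (SD, n = 3) in inguinal WAT, 96.8 ± 24.8 (n = 2) in perigonadal WAT and 256 ± 70.1 (n = 3) in BAT. The reference transcripts Mt1-201 and Mt2-201 share no run longer than 20 nt, so a read of 36 nt or more would match 1 of them only; the read length of the libraries is not given in the sources used here.

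**Figure D3:**
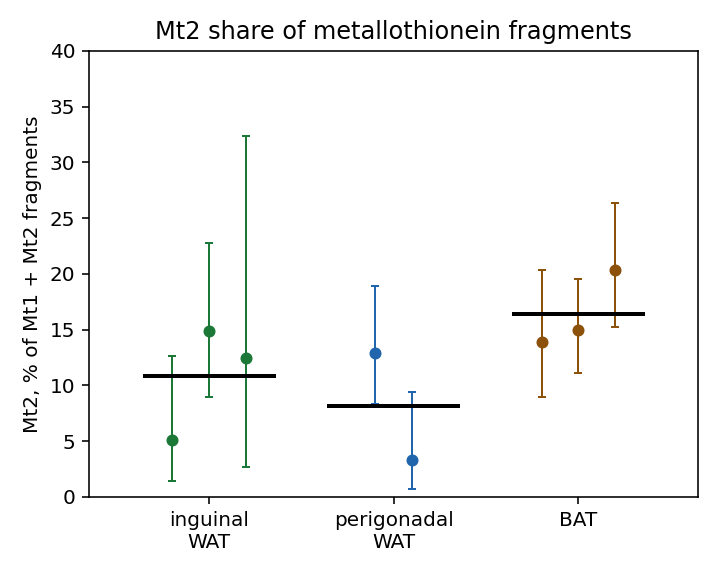
Share of Mt1 and Mt2 fragments that came from Mt2, in percent, in each library by depot. Bars are exact 95% binomial intervals for counting error and black lines are group means; the BAT points lie at 13.9% to 20.4% and the white points at 3.33% to 14.9%.

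Mt3, the brain-enriched metallothionein, was listed at 0 in all 8 libraries, as was Mt4, the form of stratified epithelia. A count of 3 fragments would have been worth 2.21 to 3.32 FPKM for Mt3, so a level below that could have gone unseen.

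The zinc sensor and the transporters were present at low levels in all depots, far below Mt1. Mtf1 stood at 1.92, 1.15 and 0.782 FPKM in inguinal WAT, 3.13 and 1.48 in perigonadal WAT and 1.84, 1.80 and 0.592 in BAT, from 8 to 57 fragments. Its means were 1.29 ± 0.58 (SD, n = 3), 2.31 ± 1.17 (n = 2) and 1.41 ± 0.71 (n = 3), and every pair of depots overlapped. Against BAT the log2 difference was -0.06 (SE 0.38) in inguinal and 0.46 (SE 0.43) in perigonadal WAT. In ppm the BAT mean was 1.24-fold the inguinal and 1.15-fold the perigonadal mean. The 3′ end of Mtf1 overlaps the antisense gene 1110065P20Rik, and whether the libraries keep strand is not stated.

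Slc30a1, the exporter gene that MTF1 is known to switch on together with the metallothioneins, was not highest in BAT. Its FPKM was 0.986, 1.65 and 0.422 in inguinal WAT, 2.57 and 1.82 in perigonadal WAT and 0.897, 0.633 and 1.67 in BAT, from 5 to 29 fragments. The perigonadal libraries stood above all others, and the BAT and inguinal libraries overlapped. The BAT mean was 1.05-fold the inguinal mean, against 3.38-fold for Mt1 and 5.24-fold for Mt2. Its log2 differences from BAT were -0.05 (SE 0.38) in inguinal and 0.65 (SE 0.42) in perigonadal WAT. Perigonadal libraries lay above BAT without overlap for 48.3% of all tested genes, and inguinal libraries lay below perigonadal ones for 27.5% and above them for 1.44%. In ppm, Slc30a1 overlapped in every pair of depots, with a BAT mean 0.955-fold the perigonadal mean. The 5′ end of Slc30a1 overlaps the antisense gene 1700034H15Rik.

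Slc39a14, the importer gene, stood at 1.56, 1.70 and 1.43 FPKM in inguinal WAT, with 3.03 and 2.74 in perigonadal WAT and 2.19, 1.88 and 0.902 in BAT. These came from an estimated 8 to 38 fragments. Perigonadal WAT again stood above the rest, at 2.88 ± 0.20 (SD, n = 2) against 1.56 ± 0.14 (n = 3) in inguinal WAT and 1.66 ± 0.67 (n = 3) in BAT. That separation was gone in ppm, where perigonadal WAT was 1.09-fold the inguinal mean and the groups overlapped, and after median-ratio scaling. The files assign nearly all of the gene to NM_001135152 in inguinal replicates 1 and 2 and BAT replicates 2 and 3, but to NM_144808 in BAT replicate 1 and to NM_001135151 in perigonadal replicate 1. These transcripts have 111, 170 and 0 bases found in neither of the others, and only the sum over transcripts is used. Levels of Slc39a14, Mtf1 and Slc30a1 overlapped and give no order among them.

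**Figure D4:**
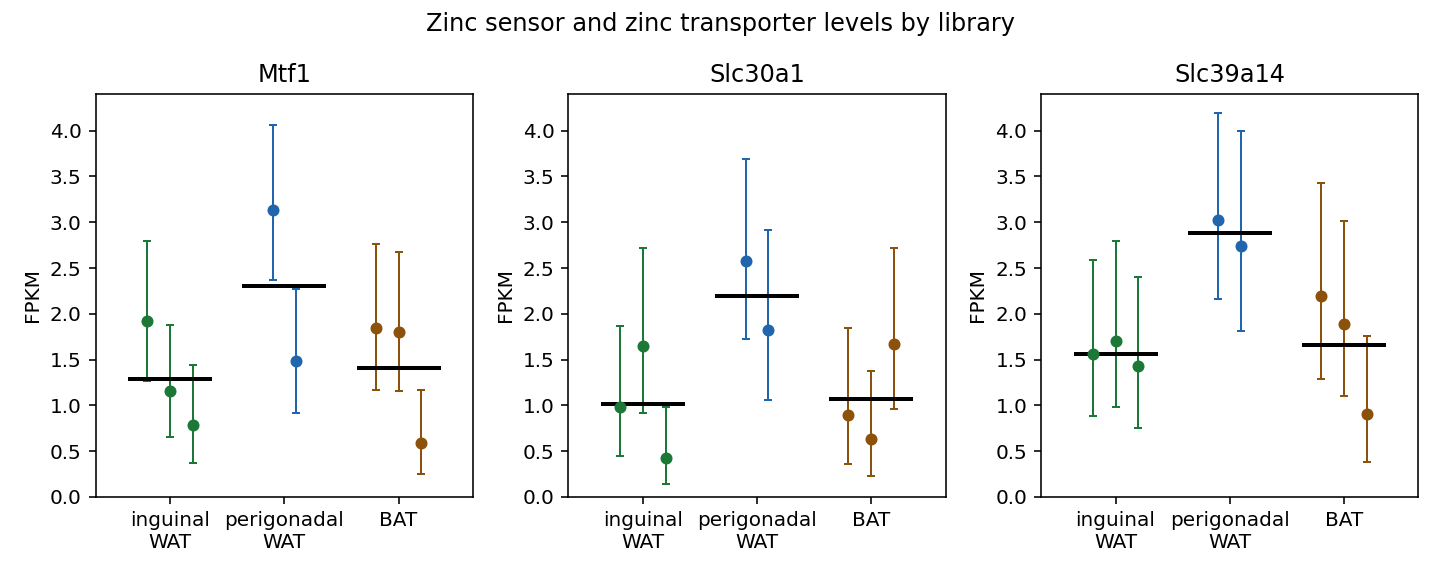
FPKM of Mtf1, Slc30a1 and Slc39a14 in each library by depot, on linear axes from 0. Bars are exact 95% Poisson intervals for counting error and black lines are group means; BAT and inguinal WAT overlap for all 3 genes, and the perigonadal libraries lie highest for Slc30a1 and Slc39a14.

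The other zinc transporters, not used to choose the genes above, can be tested. Of the 22 other Slc30 (exporter) and Slc39 (importer) genes, 12 passed the filter of at least 1 FPKM in at least 2 libraries. No transporter was called by limma in inguinal WAT against BAT, where 2.2% of all genes were called, and 0 of the 12 had an unadjusted p under 0.05. In perigonadal WAT against BAT 1 was called, against 5.18% of all genes, and 4 had an unadjusted p under 0.05. Between the white depots 0 were called and 2 had an unadjusted p under 0.05. Counts at an unadjusted p, here and for the lists below, have no share of all tested genes beside them. Nothing is read from them. The median log2 differences were -0.18 for the 4 exporters and 0.06 for the 8 importers in inguinal WAT against BAT, where that of all tested genes was 0.03. In perigonadal WAT against BAT they were 0.60 and 0.52, beside 0.52 for all tested genes. Without perigonadal replicate 1, 10 transporters passed the filter in place of 12. Slc30a4, at a mean of 1.23 FPKM in perigonadal WAT, 0.454 in inguinal WAT and 0.214 in BAT, passed through the perigonadal libraries only. The perigonadal counts and medians thus hold at least 1 gene admitted because it was high there.

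Slc30a6, which encodes an exporter that works with ZnT5 in the early secretory pathway, was the gene called. Its FPKM was 5.32 and 4.70 in perigonadal WAT, 0.415, 3.72 and 0.421 in BAT, and 2.24, 1.08 and 0.469 in inguinal WAT. Both perigonadal libraries stood above all others, and BAT replicate 2 stood well above the other BAT libraries. The perigonadal difference from BAT was 1.50 (SE 0.45, adjusted p = 0.0331) on the log2(FPKM + 1) scale. The call was lost after median-ratio scaling (log2 difference 1.02, adjusted p = 0.274), and over 16 alternatives the adjusted p ran from 0.00314 to 0.487, with 7 keeping the call.

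Slc39a7 and Slc39a1 were the most abundant importers. Slc39a7, whose product releases zinc from the endoplasmic reticulum, stood at 12.8, 9.30 and 6.64 FPKM in inguinal WAT, 13.9 and 11.7 in perigonadal WAT and 13.2, 9.10 and 9.96 in BAT. These ranges overlapped, and the log2 differences from BAT were -0.18 (SE 0.40) and 0.25 (SE 0.45). Slc39a1, a plasma membrane importer, stood at 13.8, 13.1 and 3.91 in inguinal WAT, 16.6 and 13.2 in perigonadal WAT and 6.39, 7.71 and 5.23 in BAT. The perigonadal values of Slc39a1 lay above those of BAT, with a log2 difference of 1.10 (SE 0.47) and an adjusted p of 0.162 by limma. Slc30a2, Slc30a3, Slc30a8, Slc30a10, Slc39a5 and Slc39a12 were listed at 0 in all libraries. By mean FPKM over the 8 libraries, Mt1 at 125 and Mt2 at 21.9 stood above every transporter, the highest of which was Slc30a9 at 15.9.

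**Figure D5:**
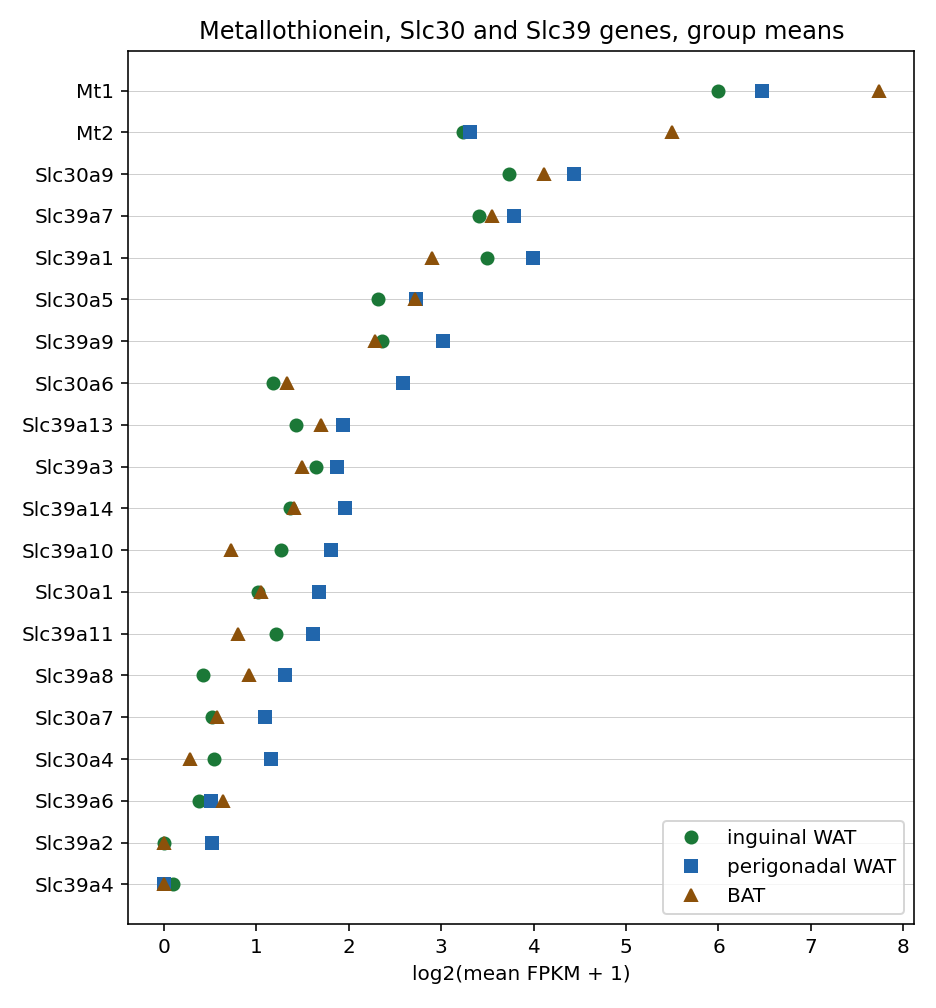
Mean level of each metallothionein, Slc30 and Slc39 gene above 0 in any library, as log2 of mean FPKM + 1, by depot. Genes are ordered by their mean over the 8 libraries; BAT symbols lie to the right of both white depots by a wide gap for Mt1 and Mt2, whereas perigonadal symbols lie farthest right for most transporters.

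Other genes reported to depend on MTF1 showed no common direction. Of 4 tested, Csrp1 was called higher in inguinal WAT than in BAT and none was called in the other comparisons, with 1 gene at an unadjusted p under 0.05 in each of them. The shares of all tested genes called were 2.2% in inguinal WAT against BAT, 5.18% in perigonadal WAT against BAT and 0.703% between the white depots. Csrp1, a LIM-domain gene of smooth muscle, had an FPKM of 25.6, 20.1 and 7.21 in inguinal WAT, 6.85 and 5.17 in perigonadal WAT and 2.33, 1.53 and 2.47 in BAT, a log2 difference from BAT of 2.43 (SE 0.42, adjusted p = 2.74e-05, limma). The summed smooth muscle markers given above were also highest in inguinal WAT, and their part in the Csrp1 values was not tested.

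Copper handling genes matter here because metallothioneins also bind copper. Of 12 tested, 0 were called in inguinal WAT against BAT (2 at an unadjusted p under 0.05) and between the white depots (0 at that level), and Cox17 was called lower in perigonadal WAT than in BAT. For this list and the iron list below, the shares of all tested genes called were 2.2% in inguinal WAT against BAT, 5.18% in perigonadal WAT against BAT and 0.703% between the white depots. Cox17, the copper chaperone of cytochrome oxidase, had an FPKM of 176 and 186 in perigonadal WAT, 380, 450 and 354 in BAT and 247, 229 and 176 in inguinal WAT. All 3 BAT libraries were highest. The perigonadal difference was -1.11 (SE 0.35, adjusted p = 0.048) and -1.76 after median-ratio scaling, and 8 of 17 alternatives kept the call. None of the 11 iron handling genes was called in any comparison by limma, with 0, 3 and 1 at an unadjusted p under 0.05 in inguinal WAT against BAT, perigonadal WAT against BAT and inguinal against perigonadal WAT. The ferritin chain genes Fth1 and Ftl1 led that list at 107 to 412 and 88.8 to 321 FPKM, with overlapping depots.

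Oxidative stress is a further known inducer of metallothioneins, and its part in their values was not tested. None of 10 tested targets of NRF2, the antioxidant transcription factor, was called in any comparison. Of all tested genes, 2.2% were called in inguinal WAT against BAT, 5.18% in perigonadal WAT against BAT and 0.703% between the white depots. In the same order, 0, 1 and 1 of the NRF2 targets had an unadjusted p under 0.05. Prdx1 and Txn1, the most abundant of these targets, ranged from 125 to 230.3 and from 33.5 to 71.0 FPKM. Of 14 enzymes of peroxide and superoxide removal, the secreted glutathione peroxidase gene Gpx3 was called, with inguinal WAT below BAT. Its FPKM was 51.9, 103 and 47.2 in inguinal WAT and 174, 387 and 235 in BAT, with 153 and 102 in perigonadal WAT. The inguinal difference was -1.97 (SE 0.36, adjusted p = 0.000128, limma), and none of the 14 was called in the other comparisons, where 2 (perigonadal WAT against BAT) and 1 (between the white depots) had an unadjusted p under 0.05.

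Glucocorticoids and interleukin-6 are known to raise metallothioneins, and their part in the metallothionein values was not tested. No gene of their lists was called higher in BAT. Of all tested genes, only 0.469% were called higher in BAT than in inguinal WAT and 0.268% than in perigonadal WAT. Calls higher in the white depot made up 1.73% and 4.91% of all tested genes. Of 11 glucocorticoid-induced genes, Zbtb16 alone was called, higher in perigonadal WAT than in BAT with a log2 difference of 1.41 (adjusted p = 0.047, limma). It rested on perigonadal replicate 1, at 7.24 FPKM against 0.799 in replicate 2 and 0.254 to 0.766 in BAT, and 3 of 13 alternatives kept the call. At an unadjusted p under 0.05 there were 0 of the 11 in inguinal WAT against BAT, 5 in perigonadal WAT against BAT and 5 between the white depots. Of 9 interleukin-6 and acute-phase genes, 2 were called higher in inguinal WAT than in BAT (Lcn2 and Serpina3n), 2 higher in perigonadal WAT than in BAT (Serpina3n and Hp), and 0 lower in either. The Hp call was lost after median-ratio scaling (log2 difference 0.78 in place of 1.43, adjusted p = 0.0515) and held in 10 of 17 alternatives, with adjusted p from 0.00143 to 0.841. At an unadjusted p under 0.05 there were 3 of the 9 in inguinal WAT against BAT, 4 in perigonadal WAT against BAT and 4 between the white depots. Lcn2, which encodes the iron-binding lipocalin 2, was also called higher in inguinal than in perigonadal WAT, as were 0.301% of all tested genes. It stood at 32.9, 27.2 and 9.32 FPKM in inguinal WAT, 3.56 and 0.671 in perigonadal WAT and 0, 2.22 and 0.779 in BAT. The summed mammary epithelial markers were also highest in inguinal WAT, and their part in the Lcn2 values was not tested.

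The genes whose level ran most like that of Mt1 over the 8 libraries, by Pearson correlation of log2(FPKM + 1), were Ninj1 (r = 0.993), Bola3, Lamtor2, Cox7c, Cox8a, Cox8b, 2310028O11Rik and Atp5j2 (r = 0.968). For Mt2 they were Fam57b (r = 0.960), Mrpl23, Nmb, Srp14, Polr2l, Arhgdig, 1190005I06Rik and Mrpl54 (r = 0.913). Between Mt1 and Mt2 r was 0.852, and Mt2 was at rank 221 of 8957 genes by likeness to Mt1. Ninj1, which encodes a membrane protein of plasma membrane rupture, had mean FPKM of 6.82 ± 2.36 (SD, n = 3), 9.18 ± 1.71 (n = 2) and 16.6 ± 2.28 (n = 3) in inguinal WAT, perigonadal WAT and BAT. Cox7c, Cox8a and Cox8b encode subunits of cytochrome oxidase. These lists hold mainly short transcripts, with a median of 537.5 nt for the genes like Mt1 and 762 nt for those like Mt2, where the median of all tested genes was 2631.5 nt. The libraries share depth and composition across genes, so the correlations are a description.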

How the data were processed

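Ribosome-bound RNA from UCP1-TRAP mice was sequenced in 8 libraries, and groups came from the tissue labels and titles. Per the submitters' processing notes, TopHat placed the reads on mm9 and Cufflinks made the values; no versions are named there. The authors deposited FPKM with its confidence bounds per transcript (28702 transcripts) in 1 annotation file per library, a unit recorded as other because it stands inside an attribute field; the options are not given in the sources used. Gene values are sums of transcript FPKM. For genes with 1 transcript, the upper bound of FPKM gave the number of fragments, and among low values 84.3 to 92.7 percent, depending on the library, were whole to within 0.05; those of Slc39a14 were estimated from length and depth. Intervals are exact and cover counting error only.

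The test was limma 3.58.1 in R 4.3.3, with a variance trend, two-sided, on log2(FPKM + 1) of all 8 libraries in 1 model of 3 groups, with Benjamini-Hochberg adjustment over 8958 genes at 0.05. Genes were tested where 2 or more libraries reached 1 FPKM and the longest transcript reached 300 nt; 5 of the 6 genes passed and Mt3, at 0, did not. Fold changes on that scale understate the change of low genes. The fit was tested on simulated data only for inguinal WAT against BAT, with no shifted genes at low levels. Python 3.11.15, pandas 2.3.3, numpy 2.4.6, scipy 1.17.1 and matplotlib 3.10.9 did the rest. Promoters came from RefSeq (GRCm38.p6) and transcripts from GENCODE vM21.

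The genes, the lists and the tests were chosen with earlier results of these data known. The lists were metallothioneins, zinc exporters and importers, other MTF1-dependent genes, copper and iron handling, NRF2 targets, peroxide and superoxide enzymes, glucocorticoid-induced, integrated stress response, interleukin-6 and acute-phase, and hypoxia genes, beside cell type markers. Of each list up to 4 called genes were named, those with the largest difference first, or the 2 with the highest mean FPKM where none was called, and the 8 genes most correlated with Mt1 and with Mt2. Alternatives were pseudocounts of 0.1 and 5, no filter, a minimum of 5 FPKM, median-ratio scaling, the most abundant transcript, fits of the compared groups alone, a block for the replicate number and each library left out; equal FPKM totals, ppm and the length classes were added after the data were seen.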

Additional observations from a re-analysis of the deposited data

How the results depend on the processing

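The FPKM differences of Mt1 and Mt2 from BAT kept their direction in all alternatives run, from -2.24 to -1.34 (Mt1) and -3.17 to -2.17 (Mt2) for inguinal WAT when 1 library was left out, and from -1.42 to -1.01 and -3.57 to -1.43 for perigonadal WAT; for Mt2 between the white depots the range was -1.09 to 1.04, without perigonadal replicates 2 and 1. Counts of all called genes depended on the settings. In inguinal WAT against BAT 197 became 131 with a pseudocount of 0.1, 6 with no filter, 124 with a minimum of 5 FPKM, 433 with median-ratio scaling, 417 with equal totals, and 109 (without inguinal replicate 1) to 336 (without inguinal replicate 3). In perigonadal WAT against BAT 464 became 214, 117 and 307 with the first 3 of these, 1079 with only the groups compared, and 105 (without perigonadal replicate 1) to 1326 (without inguinal replicate 3). Between the white depots 63 became 5 with a pseudocount of 0.1, 146 with one of 5, 32 with a minimum of 5 FPKM, 26 with median-ratio scaling, 34 with only the groups compared, 7 with equal totals, and 11 (without inguinal replicate 1) to 220 (without perigonadal replicate 2). For zinc transporters, the single call in perigonadal WAT against BAT became 0 with a pseudocount of 0.1, no filter, a minimum of 5 FPKM, median-ratio scaling or equal totals, 2 with only the groups compared, and 0 to 3 (without inguinal replicate 3) when 1 library was left out; between the white depots 0 became 1 with a pseudocount of 5. The cause was not tested. Same-numbered libraries correlated at -0.087 to 0.126 in their deviations over 7 pairs. The inguinal and BAT pairs stood at 0.080 to 0.126, with each inguinal sample closest, among BAT samples, to its own number, and the 4 pairs with perigonadal WAT at -0.087 to -0.014, so pairing was not taken as given; with the replicate block the transporter call became 0 and the counts of all genes were 280 (inguinal WAT against BAT), 418 (perigonadal WAT against BAT) and 88 (between the white depots). Of 19 calls of named pathway genes, 0 held in every alternative and none reversed. Depth limits the genes at few fragments, among them Mt2 at 3 to 22 in the white libraries.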

Other observations

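Genes of the integrated stress response, which cells switch on when protein folding or amino acid supply fails, moved in both directions. Of 15 tested, Ddit3, Gdf15 and Atf3 were called lower and Psat1 higher in inguinal WAT than in BAT by limma, and in perigonadal WAT Gdf15 was called lower and Psat1 higher. The shares of all tested genes called were 2.2% in the inguinal and 5.18% in the perigonadal comparison with BAT. Gdf15, a secreted stress hormone, stood at 6.88, 1.79 and 6.77 FPKM in BAT, at 0, 0.688 and 0.686 in inguinal WAT and at 1.60 and 0 in perigonadal WAT. Ddit3, which encodes the stress factor CHOP, stood at 19.2, 6.74 and 23.8 in BAT and at 1.33, 4.49 and 3.59 in inguinal WAT. For both genes BAT replicate 2 was the lowest BAT library. The part of the integrated stress response in the metallothionein values was not tested. The Gdf15 calls held in 12 of 17 (inguinal) and 10 of 17 (perigonadal) alternatives and the Atf3 call in 11 of 17. Psat1, an enzyme of serine synthesis, was near 0 in BAT, at 0.310, 0 and 0.311 FPKM, and at 1.80 to 3.19 in inguinal WAT and 11.0 and 4.71 in perigonadal WAT.

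Of 6 tested hypoxia targets, Pdk1, Hk2 and Vegfa were called higher in perigonadal WAT than in BAT and 0 were called in the other comparisons, with 2 in each of them at an unadjusted p under 0.05. The shares of all tested genes called were 5.18% in perigonadal WAT against BAT, 2.2% in inguinal WAT against BAT and 0.703% between the white depots. Pdk1, a kinase that inhibits pyruvate dehydrogenase, stood at 25.5 and 22.9 FPKM in perigonadal WAT and at 2.60 to 4.85 in BAT. Its log2 difference was 2.46 (adjusted p = 0.000106, limma). Hk2, the insulin-responsive hexokinase, stood at 48.7 and 47.1 against 9.77 to 14.0 (log2 difference 1.94, adjusted p = 0.00276). Vegfa, a growth factor of blood vessels, stood at 48.8 in perigonadal replicate 1 but at 12.8 in replicate 2, against 4.60 to 8.34 in BAT. After median-ratio scaling the log2 differences of Pdk1 and Hk2 were 1.86 and 1.30, with the calls kept, and the Vegfa call was lost (log2 difference 1.21 in place of 1.83, adjusted p = 0.0733). Over 17 alternatives the adjusted p of Vegfa ran from 0.00037 to 0.971, with 11 keeping the call.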
